A study of Mus musculus with 27 samples.

Results

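Sialyltransferases are the enzymes of the Golgi that place sialic acid at the ends of the sugar chains of glycoproteins and glycolipids. The 8 genes described here, St6gal1, St3gal1, St3gal2, St3gal3, St3gal4, St3gal5, St3gal6 and St8sia4, were found by their gene symbols among the 45070 genes of the deposited table, and all 8 were found once. All 8 were among the 13901 genes with values high enough to test (a normalised read count of 10 or more in 3 or more samples). St3gal6 passed that limit through the LPS groups, since only 1 of its 12 samples at or above 10 normalised read counts was not from an LPS group.

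The data are chromatin-associated RNA, which is rich in transcripts still being made, from bone marrow-derived macrophages (BMDMs) of wild type mice, grown per the study's methods from the bone marrow of male C57/BL6 animals aged 6 to 8 weeks. The study asked how kinase inhibitors alter macrophage responses, and these samples are its time courses without inhibitor. Each of the 9 groups had 3 replicates, and all of them first received 1 h of DMSO, the solvent of the inhibitors: untreated cells, cells given LPS at 10 ng/ml for 0.5, 1, 2 or 4 h, and cells given IL-4 at 10 ng/ml for the same times. LPS comes from the outer membrane of bacteria and is sensed by TLR4, and IL-4 is a cytokine of type 2 immunity. Nothing in the sources says whether replicates were separate cultures or animals, so p-values measure the spread between these samples only, and the methods do not say whether reads in introns or on the other strand were counted.

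The 8 enzymes differ in the sugar they act on and in the bond they make. St6gal1 caps galactose on N-glycans with sialic acid in α2,6 linkage, the St3gal enzymes make α2,3 linkages on O-glycans, N-glycans or glycolipids, and St8sia4 extends existing sialic acids into α2,8-linked polysialic acid. In macrophages and other leukocytes, terminal sialic acid is known as the ligand of the siglec receptors and as a cover over galactose that galectins would otherwise bind.

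The summed normalised read count ran from 2469768 to 2790981 in untreated and IL-4 samples, against 3571492 to 4058199 in LPS samples. These sums follow the authors' scaling and are not depths, which the values do not give. In 3 of the 27 libraries at least 1 whole value up to 15 is taken by no gene, so 1 read was worth more than 1 normalised read count there and low values are coarse. The 10 macrophage markers were all tested and summed to between 10220 and 29273 normalised read counts per sample, while 5 B cell markers summed to at most 8, 5 T cell markers to at most 12, 5 neutrophil markers to at most 28, 5 dendritic cell markers to at most 99 and 5 stromal and erythroid markers to at most 208. The dendritic sum moved with LPS, from 11 to 20 in untreated cells to between 55 and 99 at LPS 1 h, and 2 of its 3 tested genes rose, among them Zbtb46 (3.90 on the log2 scale at 1 h, adjusted p 1.46e-05), while Xcr1 was at 0 throughout. The stromal and erythroid sum differed between replicates of a group, such as 31 to 200 at LPS 1 h and 33 to 208 at IL-4 2 h. The part of either sum in the values of the 8 genes was not tested. Cd3e, Cd3g and Ly6g were at 0 in every sample. Of the 4 genes listed as checks of the stimuli, Tnf, Nfkbia, Cish and Socs1, all 4 rose after LPS, and Cish and Socs1 after IL-4. These bulk values cannot tell fewer expressing cells from less RNA per cell. Replicate 1 stood apart for several of the 8 genes: it was the lowest of its group for St8sia4 in 9 of 9 groups and for St3gal5 in 7, and the highest for St3gal3 in 9 and for St3gal1 in 8. Without replicate 1, 1 of the calls for the 8 genes was lost, that of St3gal6 over the IL-4 course, and 6 were gained. LPS groups also sit low as a whole: over all tested genes the median log2 fold change against untreated was −0.24, −0.30, −0.29 and −0.26 in order of time, against −0.02 to 0.02 after IL-4, so a gene at 0 after LPS lies above the median gene.

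RefSeq promoter windows (GRCm38.p6, from 250 bases before to 50 bases after a start site) were matched for 6 of the 8 genes, all but St3gal1 and St3gal2, with 9 windows in all. Windows of 5 genes that changed in different directions are shown because they carry different motif letters. Capitals mark matches on either strand to AP-1 (TGANTCA), the PU.1 core (GAGGAAGT), κB, the GC box (GGGCGG) or the CCAAT box (CCAAT). Offsets count from 0 at the start site.
St6gal1 start 1, chr16:23224490-23224789, plus strand: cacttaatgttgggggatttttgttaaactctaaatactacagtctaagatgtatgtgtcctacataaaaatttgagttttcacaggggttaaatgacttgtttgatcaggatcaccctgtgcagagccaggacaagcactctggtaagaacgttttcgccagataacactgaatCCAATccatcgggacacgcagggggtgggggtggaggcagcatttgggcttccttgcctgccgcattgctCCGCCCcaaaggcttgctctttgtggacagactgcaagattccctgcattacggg
St6gal1 start 3, chr16:23290220-23290519, plus strand: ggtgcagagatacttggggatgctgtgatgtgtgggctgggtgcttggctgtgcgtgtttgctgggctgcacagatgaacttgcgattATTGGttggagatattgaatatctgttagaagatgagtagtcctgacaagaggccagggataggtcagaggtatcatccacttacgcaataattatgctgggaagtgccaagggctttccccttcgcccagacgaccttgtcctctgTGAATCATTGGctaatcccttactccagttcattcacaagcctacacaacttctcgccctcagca
St8sia4, chr1:95667545-95667844, minus strand: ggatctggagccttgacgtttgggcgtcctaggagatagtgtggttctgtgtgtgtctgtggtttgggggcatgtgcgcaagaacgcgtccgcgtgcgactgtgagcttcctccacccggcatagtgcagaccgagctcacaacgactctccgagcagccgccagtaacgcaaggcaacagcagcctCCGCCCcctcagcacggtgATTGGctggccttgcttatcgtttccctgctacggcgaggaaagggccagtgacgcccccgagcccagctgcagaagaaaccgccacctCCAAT
St3gal3, chr4:118134897-118135196, minus strand: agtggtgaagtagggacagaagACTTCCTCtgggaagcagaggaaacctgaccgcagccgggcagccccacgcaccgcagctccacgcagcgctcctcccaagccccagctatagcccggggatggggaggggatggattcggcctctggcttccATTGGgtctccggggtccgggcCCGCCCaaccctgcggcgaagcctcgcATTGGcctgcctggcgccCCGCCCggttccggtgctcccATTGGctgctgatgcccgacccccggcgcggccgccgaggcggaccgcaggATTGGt
St3gal5, chr6:72097358-72097657, plus strand: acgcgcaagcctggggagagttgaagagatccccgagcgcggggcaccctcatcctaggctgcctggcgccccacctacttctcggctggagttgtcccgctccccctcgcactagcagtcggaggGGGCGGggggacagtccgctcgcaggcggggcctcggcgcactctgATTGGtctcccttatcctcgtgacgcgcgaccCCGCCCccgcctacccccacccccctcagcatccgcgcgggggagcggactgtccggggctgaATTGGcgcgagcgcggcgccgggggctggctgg
St3gal6 start 2, chr16:58523377-58523676, minus strand: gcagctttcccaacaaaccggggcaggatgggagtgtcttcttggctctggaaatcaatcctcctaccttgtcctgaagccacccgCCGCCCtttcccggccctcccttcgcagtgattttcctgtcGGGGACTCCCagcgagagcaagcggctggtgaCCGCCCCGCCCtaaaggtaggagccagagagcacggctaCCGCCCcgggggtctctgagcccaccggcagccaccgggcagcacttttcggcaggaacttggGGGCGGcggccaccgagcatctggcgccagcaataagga

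The 3 St6gal1 windows held 48% to 50.7% G and C and 6 to 10 CpGs, near the medians of 52.7% and 7 over all 32851 windows. The windows of St3gal3, St3gal4 and St3gal5 held 70%, 74% and 72.7% G and C, with 26, 31 and 33 CpGs. The third St6gal1 start has the only AP-1 match among the 9 windows, at −15 to −9, which shares 1 base with a CCAAT match, and 7.81% of all windows hold such a match. The second St3gal6 start has the only κB match, at −123 to −114, against 8.46% of all windows, and 5 GC box matches, 2 of which overlap by 1 base. St3gal3 has the only PU.1 core match, at −228 to −221, against 3.20% of all windows, and 4 CCAAT matches, a motif in 37.4% of all windows. GC boxes, found in 35.7% of all windows, were matched in St3gal3, St3gal4, St3gal5, St8sia4, the second St3gal6 and the first St6gal1 window. The letters of the STAT site with a spacer of 3 (TTCNNNGAA) or 4 (TTCNNNNGAA), of ISRE (GAAANNGAAA), of the TATA box (TATAAA) and of the E-box (CACGTG) were in none of the 9 windows. They are in 8.30%, 6.95%, 3.44%, 13.6% and 7.15% of all windows. A match is a description of the letters and not of a bound site.

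**Figure D1:**
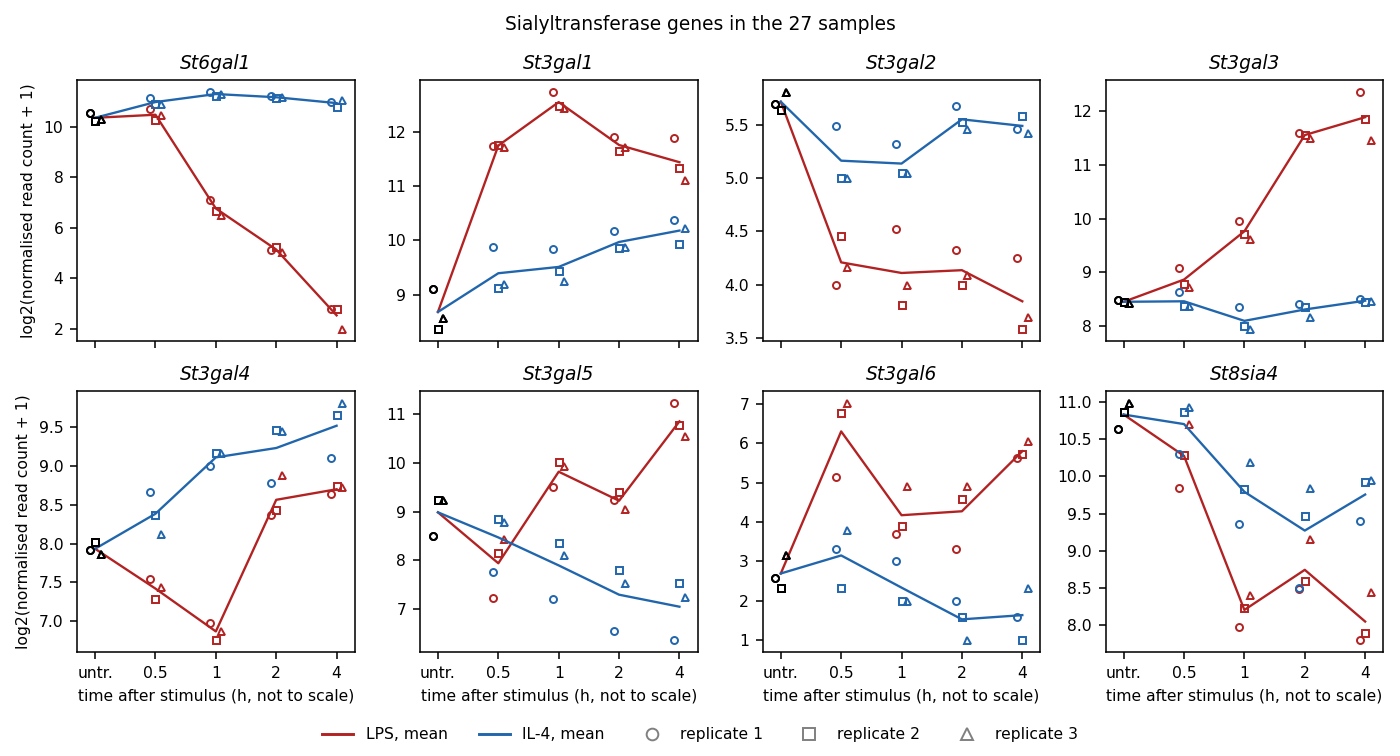
Values of the 8 genes in the 27 samples, as log2(normalised read count + 1) (y axis, own range per gene) over time after LPS (red) or IL-4 (blue). Symbols are replicates, lines join group means, and the untreated samples (black) start both courses. St6gal1 falls from 1199 to 1480 normalised read counts in untreated cells to 3 to 6 at LPS 4 h, while St3gal1 and St3gal3 rise, and the St3gal4 values at LPS 2 h lie above untreated as deposited but not when the libraries are scaled to equal totals.

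LPS changed the 8 genes in opposite directions. Over the 4 times all 8 passed the limma F test at an adjusted p of 0.05, in a background where 87.6% of all tested genes did. St3gal6 is among them, a gene that entered the test through its LPS groups. Against untreated cells 2 rose and 3 fell at 0.5 h, where 19.6% of all tested genes were higher and 34.4% lower. At 1 h 4 were higher and 4 lower (background 24.8% and 39%), at 2 h 4 higher and 3 lower (26.9% and 39%), and at 4 h 5 higher and 3 lower (25.9% and 37.6%). The median log2 fold change of the 8 was −0.20, −0.12, 0.44 and 1.32 at the 4 times. These medians include St3gal6 and were not taken without it, so they are not set against the medians of all genes. At 0.5 h the 5 calls became 3 without replicate 2, with St3gal4 (−0.40, adjusted p 0.136) and St3gal5 (−1.03, adjusted p 0.0728) lost.

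St6gal1, the α2,6 enzyme (chr16:23224740-23360350, plus strand, 135.6 kb), fell to near 0 after LPS. Its untreated replicates held 1480, 1199 and 1257 normalised read counts, and after 0.5 h of LPS they held 1659, 1241 and 1394. The untreated and 0.5 h ranges overlap, and the change was 0.12 on the log2 scale (SE 0.21, limma adjusted p 0.653). At LPS 1 h the replicates held 136, 101 and 91, then 34, 37 and 32 at 2 h, and finally 6, 6 and 3 at 4 h. Each of these 3 groups lies wholly below the one before it. Against untreated the mean was 12-fold lower at 1 h (log2 fold change −3.59, SE 0.21, adjusted p 1.29e-09), 38.2-fold lower at 2 h (−5.21, adjusted p 1.05e-11) and 262-fold lower at 4 h (−7.81, adjusted p 1.69e-13). Relative to the median gene the 4 h change was −7.56, and over the 12 alternative settings it ran from −8.37 to −6.67, the smallest size with a pseudocount of 8.

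IL-4 moved St6gal1 the other way. The replicates held 2252, 1922 and 1886 normalised read counts at 0.5 h, followed by 2644, 2376 and 2512 at 1 h, 2347, 2223 and 2321 at 2 h, and then 2024, 1754 and 2105 at 4 h. All 12 lie above the highest untreated value of 1480. The rise was 1.54-fold at 0.5 h (log2 fold change 0.62, SE 0.10, adjusted p 0.000517), 1.91-fold at 1 h (0.94, adjusted p 9.17e-06), 1.75-fold at 2 h (0.81, adjusted p 3.06e-05) and 1.49-fold at 4 h (0.58, adjusted p 0.0006). Without replicate 3 the 4 h rise was 0.50 and no longer passed (adjusted p 0.0684). In the order of the 9 group means, IL-4 1 h was highest and did not overlap IL-4 2 h, the IL-4 2 h, 0.5 h and 4 h groups overlapped their neighbours in that order, and the LPS 0.5 h and untreated groups overlapped each other.

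St8sia4, which builds polysialic acid on carriers such as neuropilin-2 (chr1:95587682-95667594, minus strand), fell after either stimulus. Untreated replicates held 1599, 1871 and 2024 normalised read counts, and LPS took them to 914, 1249 and 1664 at 0.5 h and to 249, 300 and 338 at 1 h. At LPS 2 h they held 356, 385 and 568, and 4 h gave 221, 237 and 348. The 0.5 h range overlaps untreated (−0.56, SE 0.23, adjusted p 0.0518), while the later groups lie wholly below it. The mean was 6.19-fold lower at 1 h (log2 fold change −2.63, SE 0.23, adjusted p 1.02e-07), 4.2-fold lower at 2 h (−2.09) and 6.82-fold lower at 4 h (−2.79, adjusted p 3.58e-08). The 0.5 h contrast is borderline, since it passed without replicate 3 (−0.69, adjusted p 0.0167) and at equal totals (−1.07, adjusted p 0.000934). It also passed with the replicate number as a block in the fit (−0.56, adjusted p 0.00032). Over the 12 alternatives the 0.5 h change ran from −1.07 to −0.31, with limma adjusted p up to 0.257.

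After IL-4 the St8sia4 replicates held 1260, 1875 and 1961 normalised read counts at 0.5 h, followed by 657, 907 and 1166 at 1 h, 359, 708 and 921 at 2 h, and then 672, 971 and 986 at 4 h. The 0.5 h values overlap untreated (−0.13, adjusted p 0.852), and all 9 later values lie below the lowest untreated value. The fall was 2.01-fold at 1 h (log2 fold change −1.04, SE 0.31, adjusted p 0.0268), 2.76-fold at 2 h (−1.56, adjusted p 0.00166) and 2.09-fold at 4 h (−1.08, adjusted p 0.0192). Without replicate 2 none of these 3 passed (adjusted p 0.262, 0.0604 and 0.174), and without replicate 3 those at 1 and 4 h did not (0.0875 and 0.091), with log2 changes between −1.64 and −1.04 in all 5 cases. Replicate 1 is the lowest in each of the 4 IL-4 groups and in untreated cells.

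St3gal1 and St3gal2 sialylate the galactose of core 1 O-glycans, and they moved apart. St3gal1 (chr15:67102875-67176882, minus strand) held 554, 331 and 379 normalised read counts in untreated cells and 3428, 3466 and 3382 after 0.5 h of LPS. It held 6765, 5652 and 5527 at LPS 1 h, followed by 3829, 3203 and 3349 at 2 h and then 3766, 2571 and 2198 at 4 h. The 1 h group lies above all others, the 0.5, 2 and 4 h groups overlap, and all 12 LPS values lie above untreated. The rise was 8.13-fold at 0.5 h (log2 fold change 3.06, SE 0.19, adjusted p 4.5e-09), 14.2-fold at 1 h (3.85, adjusted p 2e-10), 8.21-fold at 2 h (3.07) and 6.75-fold at 4 h (2.75, adjusted p 5.5e-09). At equal totals, the scaling with the smallest values, these log2 changes were between 2.14 and 3.27 and all 4 passed.

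IL-4 raised St3gal1 less. The replicates held 940, 556 and 585 normalised read counts at 0.5 h, followed by 917, 695 and 611 at 1 h, 1159, 930 and 937 at 2 h, and then 1330, 978 and 1201 at 4 h, and each group lies above the untreated range. The rise was 1.65-fold at 0.5 h (log2 fold change 0.71, SE 0.23, adjusted p 0.0493), 1.76-fold at 1 h (0.83, adjusted p 0.0187), 2.39-fold at 2 h (1.28, adjusted p 0.000771) and 2.78-fold at 4 h (1.49, adjusted p 0.000255). Those at 2 and 4 h passed under all 12 alternatives. Those at 0.5 and 1 h did not pass without replicate 2 (0.69 and 0.71, adjusted p 0.269 and 0.215), without replicate 3 (0.75 and 0.90, adjusted p 0.267 and 0.149) or with no filter on low values (adjusted p 0.147 and 0.0729). That at 0.5 h was also lost under both other scalings, median-of-ratios (0.71, adjusted p 0.0733) and equal totals (0.58, adjusted p 0.0985).

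St3gal2 (chr8:110919865-110972497, plus strand) was low throughout, with 51, 49 and 55 normalised read counts in untreated cells. In the 12 LPS samples it held 11 to 22, all below untreated, and the fall was 2.93-fold at 0.5 h (log2 fold change −1.51, SE 0.26, adjusted p 0.000159), 3.10-fold at both 1 and 2 h (−1.61 and −1.58), and 3.78-fold at 4 h (−1.87, adjusted p 1.14e-05). The 4 LPS groups overlap one another in the order of the means. After IL-4 the replicates held 44, 31 and 31 at 0.5 h and 39, 32 and 32 at 1 h, with falls of 1.46-fold (−0.55, SE 0.15, adjusted p 0.023) and 1.51-fold (−0.58, adjusted p 0.014). At 2 and 4 h they held 42 to 50, with changes of −0.17 and −0.23 that did not pass (adjusted p 0.48 and 0.322). The falls at IL-4 0.5 and 1 h also failed without replicate 2 (−0.51 and −0.57, adjusted p 0.273 and 0.173) and without replicate 3 (−0.43 and −0.49, adjusted p 0.359 and 0.242).

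St3gal3, St3gal4 and St3gal6 act on galactose bound to N-acetylglucosamine, the end of many N-glycans and of the selectin ligands. St3gal3 (chr4:117932153-118134946, minus strand), the longest of the 8 genes at 202.8 kb, held 357, 348 and 344 normalised read counts in untreated cells. It held 543, 442 and 422 at LPS 0.5 h, followed by 991, 841 and 789 at 1 h, 3111, 3023 and 2904 at 2 h, and then 5242, 3693 and 2818 at 4 h. Each LPS group up to 2 h lies above the one before it, and the 2 and 4 h groups overlap. The 0.5 h values lie above untreated but the change of 0.41 did not pass (SE 0.17, adjusted p 0.0558), although it did without replicate 1 (0.32, adjusted p 0.0221). It also did with the replicate number as a block in the fit (0.41, adjusted p 0.00734). Over the 12 alternatives the 0.5 h change ran from −0.10 to 0.66, with limma adjusted p up to 0.64. The rise was 2.50-fold at 1 h (log2 fold change 1.31, adjusted p 9.11e-06), 8.62-fold at 2 h (3.10, adjusted p 4.04e-10) and 11.2-fold at 4 h (3.44, SE 0.17, adjusted p 1.16e-10).

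Over the IL-4 course St3gal3 stayed between 246 and 398 normalised read counts. Its log2 changes at 0.5, 2 and 4 h were 0.01, −0.14 and 0.02 (adjusted p 0.975, 0.373 and 0.923), with 95% intervals of −0.22 to 0.24, −0.37 to 0.09 and −0.21 to 0.25. At 1 h it held 325, 255 and 246, a fall of 1.27-fold (−0.35, SE 0.11, adjusted p 0.0307) that did not pass without replicate 2 (−0.31, adjusted p 0.332) or replicate 3 (−0.29, adjusted p 0.279). The F test over the course (adjusted p 0.0432) was lost in the same 2 cases (adjusted p 0.408 and 0.391).

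St3gal4 (chr9:35046576-35116864, minus strand) held 240, 258 and 233 normalised read counts in untreated cells. After LPS it held 185, 155 and 172 at 0.5 h, followed by 125, 107 and 116 at 1 h, 330, 345 and 473 at 2 h, and then 397, 426 and 423 at 4 h. The first 2 groups lie below untreated and the last 2 above it. The change was −0.51 at 0.5 h (SE 0.14, adjusted p 0.00504), −1.07 at 1 h (2.1-fold lower, adjusted p 6.67e-06), 0.63 at 2 h (1.57-fold higher, adjusted p 0.000811) and 0.77 at 4 h (1.70-fold higher, adjusted p 0.000152). The later rise depends on the scaling, since at equal totals the change was −0.03 at 2 h (adjusted p 0.865) and 0.16 at 4 h (adjusted p 0.292). At 2 h it also did not pass without replicate 3 (0.44, adjusted p 0.0538), and the 0.5 h fall did not pass without replicate 2 (−0.40, adjusted p 0.136) or after median-of-ratios rescaling (−0.27, adjusted p 0.108).

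After IL-4 St3gal4 held 404, 331 and 277 normalised read counts at 0.5 h, followed by 512, 575 and 572 at 1 h, 439, 706 and 699 at 2 h, and then 547, 804 and 896 at 4 h. All 12 lie above the untreated range, although the 0.5 h change of 0.45 did not pass (SE 0.20, adjusted p 0.163), except without replicate 1 (0.30, adjusted p 0.0461). The rise was 2.27-fold at 1 h (log2 fold change 1.18, adjusted p 0.000738), 2.52-fold at 2 h (1.30, adjusted p 0.000266) and 3.07-fold at 4 h (1.59, adjusted p 5.43e-05). These 3 passed under all 12 alternatives. IL-4 4 h had the highest mean of the 9 groups and overlapped IL-4 2 h, which overlapped IL-4 1 h.

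St3gal6 (chr16:58469742-58524253, minus strand) was at 5, 4 and 8 normalised read counts in untreated cells. LPS gave 34, 107 and 128 at 0.5 h, followed by 12, 14 and 29 at 1 h, 9, 23 and 29 at 2 h, and then 48, 52 and 65 at 4 h. The values are high at 0.5 and 4 h and lower in between, and all 12 lie above untreated. The gene entered the test through these LPS groups, so its adjusted p-values are of a gene picked where it was high. The rise was 15.8-fold at 0.5 h (log2 fold change 3.61, SE 0.49, adjusted p 2.02e-05), 3.24-fold at 1 h (1.48, adjusted p 0.0163), 3.59-fold at 2 h (1.58, adjusted p 0.0109) and 9.71-fold at 4 h (3.10, adjusted p 5.18e-05). The rises at 1 and 2 h did not pass without replicate 2 (1.43 and 1.24, adjusted p 0.122 and 0.169) or at equal totals (0.96 and 0.99, adjusted p 0.0957 and 0.0841), and that at 1 h did not pass without replicate 3 (1.35, adjusted p 0.0724), with a pseudocount of 8 (0.90, adjusted p 0.0513) or with no filter on low values (adjusted p 0.0633).

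Under IL-4 St3gal6 held 9, 4 and 13 normalised read counts at 0.5 h, followed by 7, 3 and 3 at 1 h, 3, 2 and 1 at 2 h, and then 2, 1 and 4 at 4 h. No time passed on its own, and at 2 h, where all 3 replicates were at or under 3, the mean was at least 1.89-fold lower against that floor per library (adjusted p 0.0783). The F test over the course passed (adjusted p 0.0412) but not without replicate 1, 2 or 3 (adjusted p 0.102, 0.111 and 0.21), so no direction is given for it.

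St3gal5 makes the ganglioside GM3 from lactosylceramide (chr6:72097608-72154570, plus strand). It held 359, 600 and 602 normalised read counts in untreated cells and 149, 283 and 346 at LPS 0.5 h, which lies below untreated. It then held 725, 1042 and 978 at LPS 1 h, followed by 600, 672 and 529 at 2 h and then 2398, 1768 and 1502 at 4 h. The 1 h and 4 h groups lie above untreated and the 2 h group overlaps it. The change was −1.05 at 0.5 h (2.01-fold lower, SE 0.28, adjusted p 0.00515), 0.84 at 1 h (1.76-fold higher, adjusted p 0.0164), 0.24 at 2 h (adjusted p 0.467) and 1.87 at 4 h (3.63-fold higher, adjusted p 2.73e-05). The 0.5 and 1 h changes did not pass without replicate 2 (−1.03 and 0.86, adjusted p 0.0728 and 0.106), and the 1 h rise did not pass at equal totals (0.25, adjusted p 0.433).

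After IL-4 St3gal5 held 215, 463 and 444 normalised read counts at 0.5 h, followed by 147, 328 and 276 at 1 h, 92, 223 and 184 at 2 h, and then 81, 184 and 151 at 4 h. Replicate 1 is the lowest in every one of these groups and in untreated cells, and the ranges from 1 h on lie below untreated. The change was −0.52 at 0.5 h (adjusted p 0.491) and −1.09 at 1 h (SE 0.42, adjusted p 0.0892), and the fall passed at 2 h (3.13-fold, log2 fold change −1.69, adjusted p 0.00845) and at 4 h (3.75-fold, −1.94, adjusted p 0.00389). Without replicate 1 all 4 times passed, among them 0.5 h (−0.41, adjusted p 0.0428) and 1 h (−1.0, adjusted p 0.000205). With the replicate number as a block in the fit, 0.5 and 1 h passed too (−0.52 and −1.09, adjusted p 0.000709 and 3.51e-07). Without replicate 3 neither the 2 h nor the 4 h fall did (−1.69 and −1.92, adjusted p 0.13 and 0.0976), and without replicate 2 the 2 h fall did not (−1.83, adjusted p 0.0623).

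**Figure D2:**
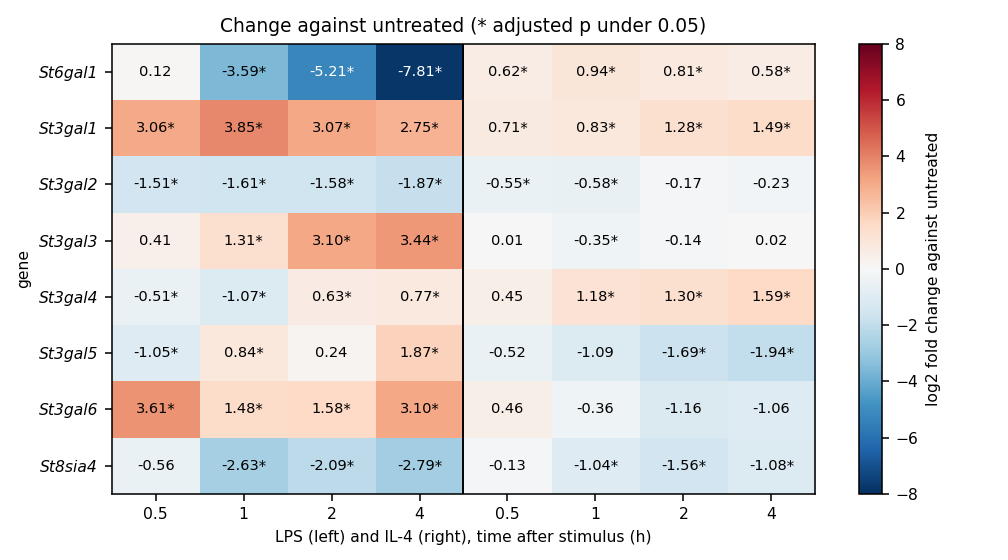
Log2 fold change of each gene (rows) against untreated at each of the 4 times of LPS (left) and IL-4 (right), with an asterisk where the limma adjusted p is under 0.05. St6gal1 reaches −7.81 at LPS 4 h and 0.94 at IL-4 1 h. The St3gal4 value of 0.63 at LPS 2 h becomes −0.03 with the libraries scaled to equal totals.

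Counted over the IL-4 course, all 8 genes passed the F test, where 40.3% of all tested genes did. At 0.5 h 2 were higher and 1 lower (background 8.15% and 8.14%), 3 and 3 at 1 h (11.1% and 9.83%), 3 and 2 by 2 h (14.3% and 13.2%), with the same numbers at 4 h (13.4% and 12.5%). Their median log2 fold change was 0.23, −0.36, −0.15 and −0.10. The count over the course depends on replicates 2 and 3, since it was 2 without replicate 2 (St3gal4 and St6gal1), 3 without replicate 3 (St8sia4 too), 7 without replicate 1 and 2 with replicates 2 and 3 averaged. Both courses are set against the same 3 untreated samples.

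The direct comparison of the stimuli does not use the untreated level. Over the 4 times all 8 genes differed between LPS and IL-4, in a background of 88.1%. At 0.5 h 3 were higher and 3 lower after LPS (background 18% and 35.8%), 4 and 4 at 1 h (24% and 40.5%), 4 and 3 by 2 h (26.4% and 42.3%), with 4 and 4 again at 4 h (26.1% and 41.9%). The median gene was itself 0.23, 0.33, 0.34 and 0.36 lower after LPS on the log2 scale.

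At 4 h the genes lower after LPS were St6gal1, by 392-fold (log2 difference −8.40, 95% interval −8.75 to −8.04, adjusted p 2.57e-21), St8sia4, by 3.26-fold (−1.71, adjusted p 1.59e-05), St3gal2, by 3.22-fold (−1.65, adjusted p 2.68e-07), and St3gal4, by 1.80-fold (−0.82, adjusted p 0.000334). Those higher after LPS were St3gal6, by 23.6-fold (4.16, 95% interval 3.10 to 5.22, adjusted p 1.37e-07), St3gal5, by 13.6-fold (3.81, adjusted p 3.7e-09), St3gal3, by 11.0-fold (3.42, adjusted p 2.72e-15), and St3gal1, by 2.43-fold (1.26, adjusted p 1.2e-05). St3gal6 entered the test through its LPS groups, and its IL-4 replicates at 4 h held only 2, 1 and 4 normalised read counts. For 7 of these 8 genes the ranges of the LPS and IL-4 replicates do not overlap at any time where the difference passed, and the exception is St3gal4 at 2 h (−0.67, adjusted p 0.00225). The 3 differences that did not pass were those of St3gal5 at 0.5 h (−0.53, 95% interval −1.31 to 0.25) and of St8sia4 at 0.5 h (−0.43, −1.03 to 0.17) and at 2 h (−0.53, −1.13 to 0.07).

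The differences were not largest at the same time. St3gal1 differed most at 1 h (3.03) and less at 4 h, and St3gal4 differed most at 1 h (−2.24), when it was 4.77-fold lower after LPS. St3gal3 went from 0.40 at 0.5 h to 1.67, 3.25 and 3.42, and St6gal1 from −0.50 to −4.53, −6.03 and −8.40. At 0.5 h the St3gal3 difference was 0.02 at equal totals (adjusted p 0.918) and did not pass without replicate 2 (0.40, adjusted p 0.227) or replicate 3 (0.43, adjusted p 0.0705). That of St6gal1 at 0.5 h was −0.25 after median-of-ratios rescaling (adjusted p 0.265) and did not pass without replicate 2 (−0.44, adjusted p 0.161). Without replicate 2 the St3gal4 difference at 2 h did not pass (−0.49, adjusted p 0.134), and without replicate 3 that of St3gal6 at 1 h did not (1.30, adjusted p 0.0738). Without replicate 1 the differences of St3gal5 at 0.5 h (−0.53, adjusted p 0.00161) and of St8sia4 at 2 h (−0.79, adjusted p 0.000466) passed. With the replicate number as a block in the fit, those of St8sia4 at 0.5 and 2 h passed (−0.43 and −0.53, adjusted p 0.00732 and 0.000933).

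**Figure D3:**
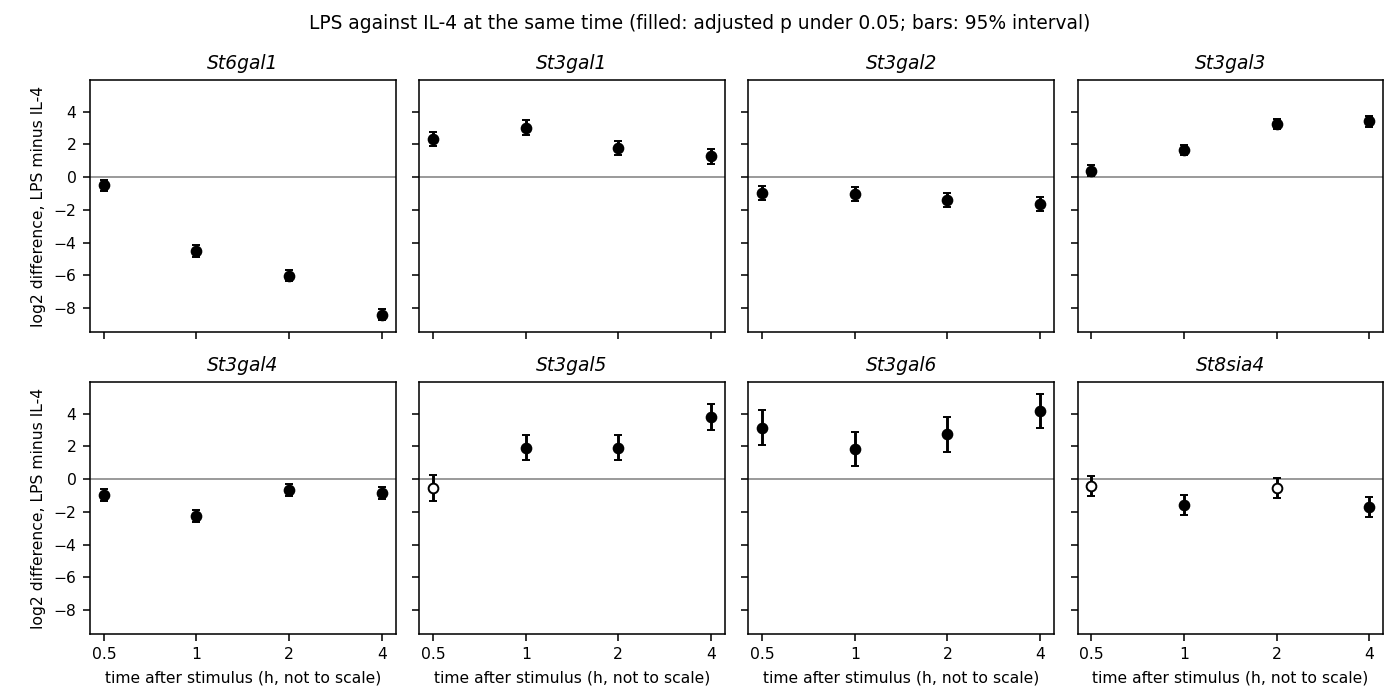
Log2 difference between LPS and IL-4 (y axis) at each of the 4 times (x axis, h) for each gene, with 95% intervals from the fit of all 27 samples; filled points passed an adjusted p of 0.05. St6gal1 reaches −8.40 and St3gal6 4.16 at 4 h, and the open points are St3gal5 at 0.5 h and St8sia4 at 0.5 and 2 h.

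To set the genes side by side, each value was divided by the length of the gene's span in kb, and the shares of the 8 were taken within each sample. In untreated cells the 8 genes summed to 53.7 ± 2.77 normalised read counts per kb (SD, n = 3), of which St8sia4 held 42.6%, St6gal1 18.1%, St3gal5 16.9% and St3gal1 10.7%. The sum per kb was 84.1 ± 5.66, 108 ± 6.64, 84.0 ± 3.43 and 101.5 ± 24.2 over the LPS times in order, and between 53.0 ± 4.5 and 59.5 ± 1.65 in the IL-4 groups. At LPS 1 h St3gal1 alone held 74.7%. At LPS 4 h St3gal1 held 37.6%, St3gal5 32.7%, St3gal3 18.8%, St8sia4 3.54% and St6gal1 0.0362%. At IL-4 1 h St6gal1 led with 34.2%, and at IL-4 4 h St3gal1 held 27.9%, St6gal1 25.4%, St8sia4 19.2% and St3gal4 18.6%. Divided by exon length instead, the leading gene is another one in some groups: St3gal3 held 50.8% at LPS 2 h and 49.1% at LPS 4 h, St6gal1 led at IL-4 0.5 h with 32.2% against 23.1% for St8sia4, and at IL-4 4 h St6gal1 held 30.7%, St3gal4 26.9% and St3gal1 15.4%. Which length fits better cannot be told, since the counting of introns is not stated.

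**Figure D4:**
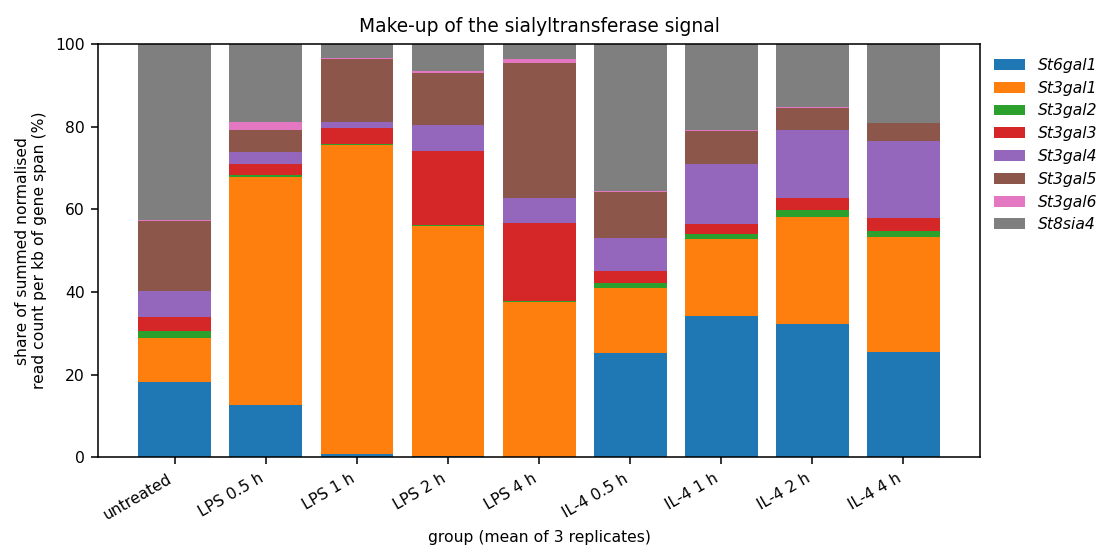
Share of each gene in the summed normalised read count per kb of gene span (y axis, %; mean of 3 replicates) in the 9 groups. St8sia4 holds 42.6% in untreated cells and St3gal1 74.7% at LPS 1 h, and St6gal1 is hardly visible from LPS 1 h on.

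Other annotated genes overlap 7 of the 8, all but St8sia4. St6gal1 shares 745 bases with BC106179 (chr16:23221524-23225484) and 862 bases with Gm30814 (chr16:23325821-23326682), both non-coding and on the other strand. BC106179 had an untreated mean of 29.3 normalised read counts and went to 0.333 at LPS 4 h and 61.7 at IL-4 1 h, and Gm30814 from 6 to 0 and 15.7, so both moved the way St6gal1 did. BC106179 held 1.75% to 9.71% of the St6gal1 value per group and Gm30814 at most 0.652%. Whether these values hold reads of St6gal1 was not tested.

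Of the other 9 overlapping non-coding genes 6 were tested. Gm31400, on the other strand of St3gal1, changed by 3.87, 3.89, 2.73 and 2.36 on the log2 scale after LPS and held 1.24% to 2.81% of its value. 9530034E10Rik changed by −0.14 at LPS 1 h, where St3gal3 rose by 1.31, and by 3.20 at LPS 4 h, and it held 2.86% to 9.10% of St3gal3, Gm51705 changed by 1.68 at IL-4 4 h and held 4.55% to 7.49% of St3gal4, and 4933431G14Rik changed by 1.53 at LPS 4 h and −1.96 at IL-4 4 h and held 3.33% to 4.72% of St3gal5. 4930581F22Rik, which shares 137 bases with St3gal4, held 3.92% to 14.4% of its value and passed neither F test (adjusted p 0.0579 after LPS and 0.8 after IL-4). Gm26132, Gm46052 and Gm39251 overlap St3gal2 and were too low to test, with means of at most 3.67. Gm33475 held 14.3% to 27.3% of the low St3gal6 value. Dcbld2, a protein-coding gene that shares 4 bases with St3gal6, rose from 29.0 to 798 normalised read counts at LPS 4 h, where St3gal6 held 55.0, and its part in the St3gal6 rise was not tested. At LPS 0.5 h, where St3gal6 was highest at 89.7, Dcbld2 held 147.

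Among the other 11179 protein-coding genes tested that overlap none of the 8, some followed nearly the same course over the 9 group means of log2(value + 1), which share libraries within a group and are given with no test. The correlation takes no account of the size of the change: B3glct went only from 72.7 untreated to 19.0 at LPS 4 h, and St6gal1 from 1312 to 5. Some are near the floor in some groups, such as Cdc42ep2 (untreated mean 1) and Armc2 (0.333 at LPS 4 h). For St6gal1 these were Tsc22d1 (Pearson r 0.996), B3glct (0.993) and Mphosph9 (0.993). For St3gal1 they were Cdc42ep2 (0.997), Ciapin1 (0.984) and Pim1 (0.980). For St3gal3 they were Gm6034 (0.995), Calhm6 (0.993) and Ascc3 (0.993), and for St8sia4 Armc2 (0.992), Pld1 (0.974) and Ttc27 (0.970). St3gal2 was nearest to Engase (0.989), Acbd5 and Dhrs7 (both 0.987), and St3gal6 to Adhfe1 (0.989), Kansl1l (0.985) and Samsn1 (0.982). For St3gal4 (Vrk1, 0.970) and St3gal5 (Fyco1, 0.966) the nearest genes were less close. Tsc22d1 had an untreated mean of 816 normalised read counts and went to 38.0 at LPS 4 h and 1144 at IL-4 4 h, and Samsn1 from 110 to 1795, 495, 427 and 994 over the LPS times, the same high, low and high order as St3gal6. Among the 8 themselves St6gal1 and St3gal3 ran most nearly opposite (r −0.977 over the 9 group means), and St6gal1 and St8sia4 most nearly together (0.804).

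Of the remaining 12 sialyltransferase genes of the mouse, 7 were tested. St6gal2, St6galnac1, St8sia2, St8sia3 and St8sia5 never went above 1 normalised read count. Over the LPS course 4 of the 7 changed (87.6% of all tested genes), and the largest change was a rise for 1 and a fall for 3. St6galnac3 had an untreated mean of 64.0 ± 17.4 normalised read counts and fell to 3 ± 2 at 4 h (log2 fold change −4.13, SE 0.41, adjusted p 3.37e-07), St6galnac5 fell by 2.59 at 1 h, and St6galnac4 rose by 0.85 at 2 h (adjusted p 0.00721), a rise lost at equal totals (0.21) and without replicate 2 (0.57, adjusted p 0.147). These 3 genes code for enzymes that add sialic acid to N-acetylgalactosamine of O-glycans or gangliosides. With IL-4, 6 of the 7 changed over time (40.3% of all tested genes), and 3 without replicate 3 (St6galnac3, St6galnac4 and St8sia1). The largest change was a rise for 2, St8sia1 and St6galnac2, and a fall for 4. Both rising genes entered the test through their IL-4 groups. St6galnac2 had its highest mean, 10.7, at IL-4 2 h (F test adjusted p 0.0495). St6galnac5 fell at 2 h (log2 fold change −1.70, limma adjusted p 0.000184) and St6galnac3 at 4 h (−1.24, adjusted p 0.00346).

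The largest change among them was that of St8sia1, the enzyme that adds a second sialic acid to GM3, the product of St3gal5. St8sia1 held 3, 2 and 3 normalised read counts in untreated cells, 13, 22 and 27 at IL-4 0.5 h, followed by 38, 72 and 93 at 1 h, 123, 224 and 263 at 2 h, and then 287, 489 and 644 at 4 h. Each group lies above the one before it, and replicate 1 is the lowest from 0.5 h on. The untreated libraries are all at or under the floor of 3 normalised read counts, so the 4 h mean of 473 ± 179 (SD, n = 3) is at least 158-fold higher, and the fitted change of 6.95 (SE 0.39, adjusted p 3.32e-08) is of a gene that entered the test only through the IL-4 groups. In the same libraries St3gal5 fell to a mean of 139. After LPS St8sia1 stayed at means of 1 to 4.67 and did not pass the F test (adjusted p 0.0918).

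The genes listed under sialic acid supply, which include some that modify or move sialic acid, such as Siae and Slc17a5, were mostly lower after LPS. All 9 tested genes of that list changed over the course (87.6% of all tested genes), and at 1 h all 9 were lower (39% of all), with a median log2 fold change of −2.20 against −0.30 for all genes. At 4 h 7 were lower and 2 higher (37.6% and 25.9% of all). Those 2 were Nans, from 34.7 ± 4.04 normalised read counts untreated to 64.3 ± 9.07, and Cmah, from 182 ± 30.5 to 311 ± 57.45. Cmas, which activates sialic acid as the CMP sugar, stood at 148 ± 21.4 normalised read counts in untreated cells and fell to 14.7 ± 10.3 by 2 h (log2 fold change −3.45, SE 0.38, adjusted p 9.28e-07). Gne, the first enzyme of sialic acid synthesis, went from 44.0 ± 5.57 to 6.67 ± 3.51 at 1 h (−2.66, adjusted p 2.25e-05). Siae, which removes O-acetyl groups from sialic acid, fell by 2.64 at 1 h, and Slc17a5, the lysosomal sialic acid exporter, fell by 2.23 at 4 h. After IL-4 4 of the 9 passed the F test (40.3% of all tested genes), 3 with a rise and Cmah with no time that passed (−0.40 at 1 h, adjusted p 0.0748), and the list median was −0.14 to 0.07 over the 4 times. Slc17a5 rose from 58.0 ± 5.20 to 137 ± 16.1 at IL-4 4 h (1.23, SE 0.15, adjusted p 3.14e-05), Gne rose by 0.68 and Cmas by 0.46, both at 2 h (adjusted p 0.00562 and 0.036), and the count of 4 became 1 without replicate 2 or without replicate 3, Slc17a5 in both cases.

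**Figure D5:**
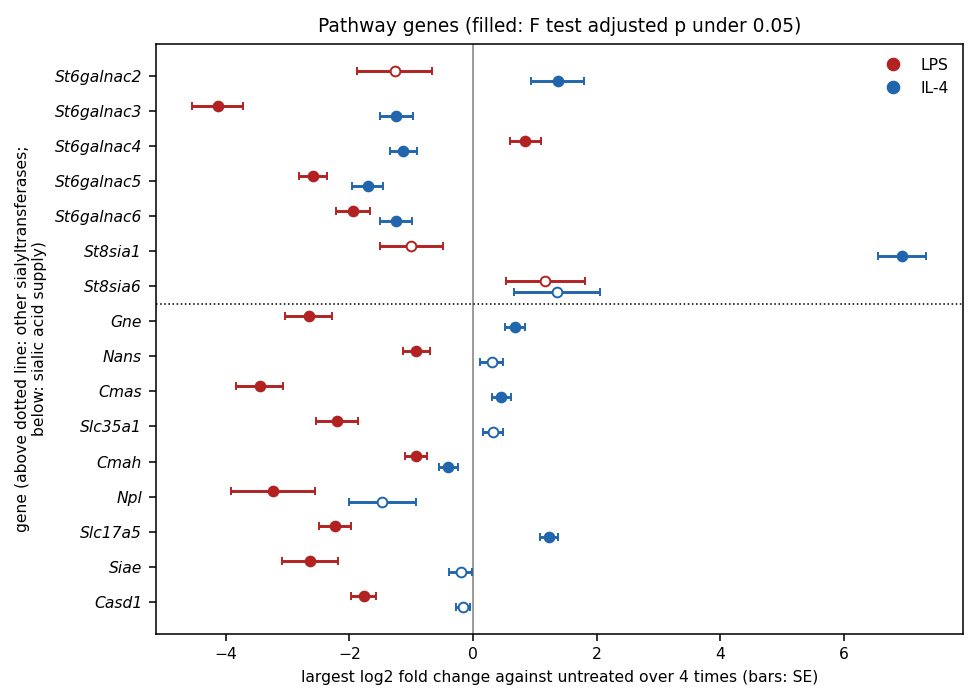
Largest log2 fold change over the 4 times against untreated (x axis, bars SE) of the 7 tested other sialyltransferases and the 9 tested genes of sialic acid supply, after LPS (red) and IL-4 (blue), filled where the F test over the course passed an adjusted p of 0.05. The largest change after LPS is a fall for all 9 genes of the supply list, although Nans and Cmah were higher than untreated at LPS 4 h. St8sia1 lies at 6.95 after IL-4.

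The acceptor chains also have their own enzymes, and here both directions were found. Of 15 tested genes 13 changed over the LPS course, near the 87.6% of all tested genes. At 1 h 6 were higher and 4 lower (background 24.8% and 39%), at 2 h 6 and 6 (26.9% and 39%), and at 4 h 5 of each (25.9% and 37.6%). Mgat1 (−1.33 at 1 h, 1.15 at 2 h), B4galt1 (1.33 at 1 h, −1.84 at 2 h) and B4galt3 (−1.68 at 0.5 h, 1.32 at 2 h) moved both ways. After IL-4 10 of the 15 changed (40.3% of all tested genes). At 0.5 h 4 of the 15 were higher and 2 lower (background 8.15% and 8.14%), against 2 and 6 at 4 h (13.4% and 12.5%). Gcnt1, which builds core 2 O-glycans on the chain that St3gal1 would cap, had 327 ± 40.2 normalised read counts untreated and fell to 10.3 ± 5.51 at LPS 4 h (log2 fold change −5.00, SE 0.34, adjusted p 3.58e-09). Gcnt2, which branches poly-N-acetyllactosamine, rose from 19.0 ± 4.36 to 362 ± 31.8 at LPS 2 h (4.2, SE 0.23, adjusted p 2.63e-10). B4galt5, which makes the lactosylceramide used by St3gal5, rose from 382 ± 57.7 to 6109 ± 772 at LPS 4 h (4.00, SE 0.18, adjusted p 3.69e-11) and by 1.16 at IL-4 0.5 h. B4galt6, with the same product, fell by 1.75 at IL-4 4 h (adjusted p 3.3e-07), and Mgat1, the first branching enzyme of complex N-glycans, rose by 1.13 at IL-4 1 h (adjusted p 5.54e-07). With replicates 2 and 3 averaged, 6 of the 15 passed for IL-4.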

How the data were processed

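Chromatin-associated RNA of the 27 samples was made into Smart-seq2 libraries with random primers and sequenced single-end. Per the labels and the study's methods, the authors aligned reads to mm10 with TopHat2 2.1.1, removed multi-mapping reads and blacklisted regions with samtools and bedtools 2.29.2, counted reads per RefSeq gene (GRCm38.p6) in R/Bioconductor, and scaled the libraries on invariant genes. What was deposited is a score, the scaled counts after rounding to integers (called normalised read counts here), so a count model was not used. Whether introns or strand entered the counting is not given in the sources used here.

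The log2(value + 1) scale was used for all tests, made in R 4.3.3 by limma 3.58.1 with a mean-variance trend, over the 13901 of 45070 genes with at least 10 in at least 3 samples, with Benjamini-Hochberg adjustment over all of them and a threshold of 0.05. Fold changes on this scale understate the change of low genes, so ratios of group means are given beside them. A course entered its fit as 12 stimulated and 3 untreated samples, with an F test over the 4 times and a contrast per time. LPS and IL-4 were compared in one fit of all 27 samples. The impulse model of the study was not run.

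A fold against a group whose libraries all hold 3 normalised read counts or fewer is a bound against 3 per library. Besides the 8 genes, the text names every gene that overlaps one of them, the 3 protein-coding genes that correlate best with each over the group means (of these only the first for St3gal4 and St3gal5), and per pathway list and stimulus at most 3 genes with the largest change among those past the F test with a mean of at least 50, of which 1 is not reported here. St8sia2 and other untested genes are named for completeness. St6galnac4 under LPS, St8sia1 under LPS, Gne, Nans and Cmah under LPS, Mgat1, B4galt1 and B4galt3 under LPS, Cmah under IL-4, Ugcg, Ccr7 and Siglece under IL-4 were given in addition, after their values were seen. So was St6galnac2 under IL-4. The 8 genes, the lists, the motifs and the tests were chosen with earlier results of these data known. The alternatives were a pseudocount of 8, no filter, a mean of at least 50, median-of-ratios rescaling, equal totals, the replicate number as a block, leaving out each replicate, replicates 2 and 3 averaged, array weights, and all 27 samples in one fit. Those for the pathway lists were added after seeing the data. Coordinates are those of the deposited table and of RefSeq (GRCm38), counted from 1.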

Additional observations from a re-analysis of the deposited data

Results flagged for a closer look

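For each of the 8 genes the LPS and IL-4 responses differed by the F test of the difference itself in the fit of all 27 samples. As these tests belong to the report, the values are given once more by size only, each as the largest log2 difference between LPS and IL-4 with its SE and the F test's limma adjusted p. After LPS the value was lower for St6gal1 by −8.40 at 4 h (SE 0.17, adjusted p 7.18e-23), for St3gal4 by −2.24 at 1 h (SE 0.18, adjusted p 9e-11), for St8sia4 by −1.71 at 4 h (SE 0.29, adjusted p 1.91e-06) and for St3gal2 by −1.65 at 4 h (SE 0.21, adjusted p 2.71e-09). It was higher for St3gal6 by 4.16 at 4 h (SE 0.51, adjusted p 3.44e-09), for St3gal5 by 3.81 at 4 h (SE 0.38, adjusted p 1.82e-09), for St3gal3 by 3.42 at 4 h (SE 0.16, adjusted p 2.71e-17) and for St3gal1 by 3.03 at 1 h (SE 0.21, adjusted p 9.32e-14). These 8 differences kept their direction and passed in the 11 alternatives run for them, or 10 for St3gal2 and St3gal6, which a mean of at least 50 leaves untested. St3gal6 entered the test through its LPS groups.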

How the results depend on the processing

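Of the 96 contrasts of the 8 genes, 76 passed, and 54 of these passed under every alternative: 21 of 28 for LPS, 8 of 19 for IL-4 and 25 of 29 between the stimuli. The 1 reversal was St3gal4 at LPS 2 h, which was −0.03 at equal totals. Over the IL-4 course the count of 8 was 5 with no filter on low values, 5 with all 27 samples in one fit, 2 with replicates 2 and 3 averaged, and 2 to 7 when 1 replicate was left out. At IL-4 0.5 h the count of 3 was 1 with replicates 2 and 3 averaged and 1 to 5 with 1 replicate left out. At 1 h the count of 6 was 3 with no filter, 2 with replicates 2 and 3 averaged and 2 to 7 with 1 left out. With 1 replicate left out, the count of 5 at 2 h was 3 to 5 and that at 4 h 2 to 5, and the latter was 3 with replicates 2 and 3 averaged. At LPS 0.5 h the count of 5 was 3 to 6 with 1 replicate left out and 7 with array weights. Fits that leave out a replicate also hold fewer samples, and the cause of these moves was not tested.

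Same-numbered samples deviated together with r of 0.351 to 0.713 for number 1, 0.0897 to 0.362 for number 2 (34 of 36 pairs above 0.1) and 0.202 to 0.454 for number 3. Between different numbers the median r was −0.309, and 19 of 27 samples correlated best with their own number. The main tests did not pair the samples by number, so a deviation shared by samples of the same number stays in their spread. With the replicate block the counts were 8 over each course and between the stimuli, 7, 8, 7 and 8 at the LPS times, 4, 7, 6 and 5 at the IL-4 times, and 7, 8, 8 and 8 between the stimuli.

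Among the pathway lists, a mean of at least 50 left fewer genes to test and gave 1 and 2 changed other sialyltransferases (LPS and IL-4), 5 supply genes (LPS), 1 siglec (IL-4), 1 ganglioside gene (IL-4) and 1 polysialic acid carrier (LPS). Of the 4 supply genes changed by IL-4, 1 passed with no filter or with replicates 2 and 3 averaged and 2 with all samples in one fit. The ganglioside count of 3 after IL-4 was 5 at equal totals, with the replicate block, without replicate 1 and with array weights. That of the sialidases after LPS was 2 in these settings and in one fit of all samples. The depth behind the values is unknown, so counting error could not be set apart from the spread between replicates.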

Other observations

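Of 9 siglecs, the receptors that bind sialic acid, 3 were tested, and all 3 changed over the LPS course, where 87.6% of all tested genes did. Siglece stood at 10.7 ± 6.35 normalised read counts before stimulation and at 103 ± 4 after 4 h of LPS (SD, n = 3), a log2 fold change of 3.28 (SE 0.38, limma adjusted p 1.74e-06). It entered the test through its LPS groups, so this is the adjusted p of a gene picked where it was high. Siglec1 had an untreated mean of 385 ± 72.9, fell by 1.42 at LPS 1 h and fell by 0.93 at 2 h. By 4 h it had reached 1068 ± 195 (1.47, SE 0.21, adjusted p 1.53e-05). Cd33 first rose and then fell after either stimulus. From an untreated mean of 148 ± 52.0 it went to 311 at LPS 1 h and 60.0 at LPS 2 h (1.12 and −1.26, adjusted p 0.000512 and 0.000166), and to 277 at IL-4 0.5 h (0.95, adjusted p 0.00905) and 39.0 ± 9.54 at IL-4 4 h (−1.86, SE 0.22, adjusted p 3.04e-05). After IL-4 Siglece fell too, by 2.36 at 4 h (adjusted p 0.000834), to a mean of 1.33 that lies under the floor of 3. Siglec1 did not pass the F test after IL-4 (adjusted p 0.409). The IL-4 count of 2 siglecs, in a background of 40.3% of all tested genes, was 1 without replicate 3. Nrp2, a carrier of polysialic acid, went from 1043 ± 93.5 to 6260 ± 641 at LPS 1 h (2.58, SE 0.14, adjusted p 3.93e-10), the time at which St8sia4 stood at 296 ± 44.7 normalised read counts. Ccr7, another carrier, was listed at 0 in untreated cells and was at least 5.44-fold higher than the floor of 3 at LPS 4 h (mean 16.3), a gene that entered the test only through LPS groups. Of the 3 tested carriers (Ncam1 is the third) 2 changed after LPS, where 87.6% of all tested genes did. After IL-4, where 40.3% of all tested genes passed, the limma F test called 0 of the carriers (smallest adjusted p 0.283), 0 also at an unadjusted p under 0.05. Nrp2 did pass without replicate 1 or with the replicate block.

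Neu1, the lysosomal sialidase, had 83.3 ± 8.96 normalised read counts untreated and 15.3 ± 3.06 at LPS 2 h (−2.38, SE 0.24, adjusted p 3.52e-07), while the other tested sialidase, Neu3, did not pass the LPS F test (adjusted p 0.0712). The limma F test called 0 of both after IL-4 (adjusted p 0.501 and 0.717, and 0 at an unadjusted p under 0.05), where 40.3% of all tested genes passed. Of 7 tested genes of ganglioside synthesis and breakdown 6 changed after LPS, near the 87.6% of all tested genes. At 1 h 1 was higher and 5 lower (background 24.8% and 39%), with the same numbers at 2 h (26.9% and 39%). At 4 h 2 were higher and 4 lower (25.9% and 37.6%). Hexa fell by 2.22 at 2 h (adjusted p 1.38e-07) and Gm2a fell by 1.78 at 0.5 h (adjusted p 5.45e-05), genes whose products take part in the breakdown of the ganglioside GM2. After IL-4 3 of the 7 changed (40.3% of all tested genes). Ugcg, which makes the glucosylceramide from which gangliosides start, rose from 83.0 ± 5.57 to 217 ± 13.3 at IL-4 0.5 h (1.37, SE 0.10, adjusted p 4.77e-07), and Gm2a fell by 1.17 at 0.5 h (adjusted p 0.0025), which did not pass without replicate 2 (−0.99, adjusted p 0.0938).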
